A study of Mus musculus with 6 samples.

Results

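The genes described here carry out antigen presentation by major histocompatibility complex (MHC) class II molecules: the coactivator Ciita, the invariant chain Cd74, the classical chains H2-Aa, H2-Ab1 and H2-Eb1, the DM chains H2-DMa, H2-DMb1 and H2-DMb2, and the DO chains H2-Oa and H2-Ob. They were chosen by name, and each was read from its brightest probe set with a single gene symbol. Of the 10 genes, 9 were measured in this way, out of 22180 genes in all. The only probe set annotated to Cd74 also carries the symbol Mir5107, so no value is given for Cd74. The samples were LSK cells, the lineage-negative, Sca-1+, c-Kit-high fraction of bone marrow that holds stem cells and multipotent progenitors, sorted from male mice 8 weeks old, with 1 Affymetrix Mouse Gene 2.0 ST array for each of 6 samples. A set of 3 arrays came from mice with a tamoxifen-inducible conditional knockout of Ctcf and 3 from mice labelled WT. Each daily tamoxifen dose was 2 mg, given on 3 days, and bone marrow was taken 24 hours after the third. The protocols speak of CreER mice and of the inducible knockout. Not given in the sources used here are whether the WT mice carried the recombinase, which promoter drove it, and the strain. The values are log2 probe set levels, so that a difference of 1 is a 2-fold change, and all differences are knockout minus WT.

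Class II molecules are alpha-beta heterodimers that show peptides from endocytosed proteins to CD4+ T cells. The invariant chain fills the groove during transport, the DM heterodimer removes its remnant and edits the peptides, and the DO heterodimer binds DM and inhibits it. CIITA does not bind DNA itself but docks on the RFX, CREB and NF-Y factors that sit on the X and Y boxes of class II promoters. B cells, dendritic cells and macrophages are the main class II cells, and in humans haematopoietic progenitors also carry HLA-DR. In human cells CTCF binds insulator elements of the class II region and takes part in contacts with CIITA and RFX, which is the background to looking at these genes after loss of Ctcf.

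Promoter sequence is shown for the classical chains that varied together and for the DM and DO beta chains, whose differences had opposite signs. The windows run from 250 bases before to 50 bases after the annotated start and come from a table of RefSeq promoters on GRCm38.p6, which matched 7 of the 9 measured genes. No window is shown for H2-Ab1 and Ciita. Each window is written 5′ to 3′ on the strand of the gene. Capitals mark matches, on either strand, to CTNGNAAC, which covers X-box cores such as that of H2-Eb1, and to GATTGG, the Y-box core that reads as CCAATC on the other strand.
H2-Aa (chr17:34287774-34288073, minus strand): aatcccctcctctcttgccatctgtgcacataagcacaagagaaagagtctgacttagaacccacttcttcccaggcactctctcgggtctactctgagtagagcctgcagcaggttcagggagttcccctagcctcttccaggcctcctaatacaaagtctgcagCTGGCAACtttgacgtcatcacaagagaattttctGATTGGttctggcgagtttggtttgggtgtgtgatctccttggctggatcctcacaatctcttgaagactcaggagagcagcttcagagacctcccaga
H2-Eb1 (chr17:34305617-34305916, plus strand): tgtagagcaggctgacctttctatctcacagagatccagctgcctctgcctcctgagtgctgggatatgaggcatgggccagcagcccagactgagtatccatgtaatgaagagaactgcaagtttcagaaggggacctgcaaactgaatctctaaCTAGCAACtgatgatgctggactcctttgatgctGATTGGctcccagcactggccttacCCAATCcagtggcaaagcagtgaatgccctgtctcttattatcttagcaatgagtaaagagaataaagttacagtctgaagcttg
H2-Ob (chr17:34238655-34238954, plus strand): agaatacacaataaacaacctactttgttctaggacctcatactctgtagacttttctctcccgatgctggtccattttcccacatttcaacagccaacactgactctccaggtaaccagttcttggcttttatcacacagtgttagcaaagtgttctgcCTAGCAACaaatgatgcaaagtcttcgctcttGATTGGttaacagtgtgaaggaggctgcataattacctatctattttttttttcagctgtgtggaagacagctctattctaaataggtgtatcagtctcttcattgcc
H2-DMb1 (chr17:34152941-34153240, plus strand): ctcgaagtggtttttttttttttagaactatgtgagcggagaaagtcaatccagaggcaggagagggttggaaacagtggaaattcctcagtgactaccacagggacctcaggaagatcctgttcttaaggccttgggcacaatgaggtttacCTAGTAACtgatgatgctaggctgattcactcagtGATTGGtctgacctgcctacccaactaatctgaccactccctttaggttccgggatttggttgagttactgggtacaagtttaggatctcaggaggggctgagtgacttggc
H2-DMb2 (chr17:34144999-34145298, plus strand): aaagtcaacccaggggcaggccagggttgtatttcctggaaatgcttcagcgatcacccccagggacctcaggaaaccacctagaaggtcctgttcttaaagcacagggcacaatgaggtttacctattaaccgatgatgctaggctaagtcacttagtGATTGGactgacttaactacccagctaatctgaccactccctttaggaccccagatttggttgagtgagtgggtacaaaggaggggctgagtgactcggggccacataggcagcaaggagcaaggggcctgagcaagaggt
In H2-Aa, H2-Eb1, H2-Ob and H2-DMb1 an X-type match was followed by a Y-box match on the same strand, and the X-type match began 35, 34, 32 and 35 bases before the Y-box match. The motifs did not overlap in these windows. The pair within 60 bases on 1 strand was in 64 of 32851 windows of the table, or 0.195%, while CTNGNAAC alone was in 13.2% and GATTGG alone in 16.1%. The letters of the X-type motif were set with these promoters in view, so the count in the members is a description. H2-Eb1 held a further match to GATTGG. H2-DMb2 held the Y-box core but no match to CTNGNAAC, and so did H2-Oa and 1 of the windows of H2-DMa, while the other window of H2-DMa held neither. That last window overlaps the annotated span of the neighbouring gene Brd2. Where H2-DMb1 has its X-type match, H2-DMb2 reads ctattaac, which is 1 base off the motif. H2-Oa has ccagcaac before its Y-box core, also 1 base off. The lack of a match in these windows therefore does not show that an X box is absent. The windows of H2-DMb1 and H2-DMb2 were identical at 84.2% of 247 aligned positions, or 58.9% of 353 columns with gaps counted. Other pairs of members had 48.9% to 66.8% of aligned positions and 40% to 51.4% of columns. The probes, which lie in the transcripts, were not compared. These beta chain genes are near copies that lie next to each other, and their values are uncertain as far as probes bind both.

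Before the members, the targeted gene and the sort were checked. Ctcf stood at log2 levels of 7.58, 7.78 and 7.86 on the knockout arrays, against 8.35, 8.59 and 8.73 on the WT arrays. All knockout values lay below all WT values, with a difference of -0.82 (SE 0.13, limma adjusted p = 0.104), and the deleted exons are unstated here. Kit, the receptor used in the sort, averaged 10.15 in the knockout and 10.38 in WT (limma adjusted p = 0.727). It was lower on every knockout array, as for 5.32% of all genes, but narrowly, with 10.212 the highest knockout and 10.220 the lowest WT value. All 10 measured genes of the LSK list were brighter than the median gene. The mean over that list was between 9.22 and 9.31 in the knockout and between 9.33 and 9.39 in WT. Sca-1, the product of Ly6a, had no probe set with a single symbol. Of the T and NK cell list 3 of 10 measured genes were above that median, of the B cell list 7 of 15 and of the conventional dendritic cell list 3 of 8. Of the plasma cell list it was 8 of 8, of the neutrophil list 6 of 10 and of the monocyte and macrophage list 8 of 15. The plasmacytoid dendritic cell list had 4 of 9 and the erythroid list 3 of 5. The arrays carry no detection calls, and in a bulk sample fewer cells of a type and less RNA per cell cannot be told apart.

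No class II gene passed the test of knockout against WT. By limma with Benjamini-Hochberg adjustment over all genes, 0 of 9 were called, where 0.0721% of all genes were (16 of 22180, with 0.0451% lower), and their lowest adjusted p was 0.209. At an unadjusted limma p under 0.05, H2-DMb1 and H2-DMb2 were higher and H2-Ob was lower, beside 5.03% of all genes higher and 3.08% lower. Of the 9 differences 7 were positive and 2 negative, with a median of 0.16, against a median of 0.02 and 45.3% negative over all genes. The members' median was -0.13 without knockout replicate 1, -0.04 without WT replicate 2 and 0.38 without knockout replicate 3. The precision is limited by 3 arrays a group.

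**Figure D1:**
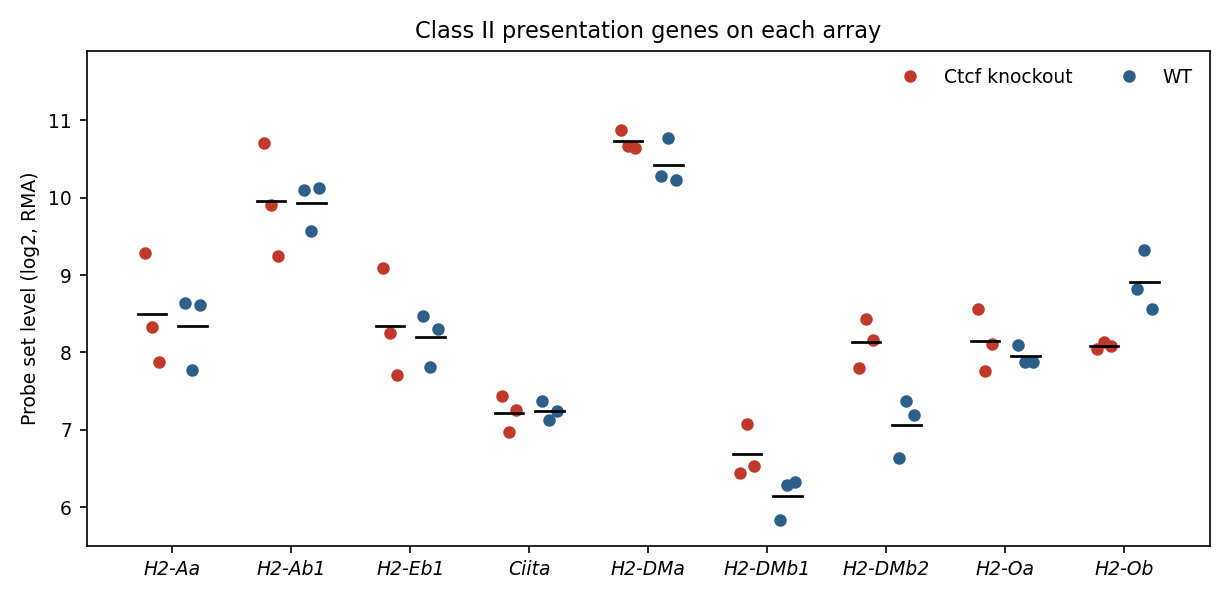
Log2 probe set level (y axis) of the 9 measured class II presentation genes (x axis) on each array; red points are the 3 knockout arrays, blue points the 3 WT arrays, and black lines the group means. The groups overlap for H2-Aa, H2-Ab1, H2-Eb1, Ciita, H2-DMa and H2-Oa, the knockout arrays lie above WT for H2-DMb1 and H2-DMb2, and below it for H2-Ob, where they lie between 8.05 and 8.13.

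The classical chains, whose alpha-beta pairs form the peptide-binding molecules of the cell surface, varied more between arrays of 1 genotype than between genotypes. H2-Ab1, the A beta chain, had levels of 10.71, 9.90 and 9.25 in the knockout, against 10.10, 9.57 and 10.13 in WT. The highest and the lowest of these 6 values both came from knockout arrays, replicates 1 and 3, and the WT values lay between them. The group means were 9.95 ± 0.73 in the knockout and 9.93 ± 0.32 in WT (SD, n = 3 each). The limma difference was 0.02 (SE 0.33, 95% interval -0.72 to 0.77, adjusted p = 0.994), and its sign turned with a further quantile normalization or with centring on the brighter genes, to -0.03 in both.

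H2-Aa, the A alpha chain, had levels of 9.29, 8.32 and 7.88 in the knockout, against 8.64, 7.77 and 8.61 in WT. Again knockout replicate 1 was the highest of all arrays, and the lowest were WT replicate 2 and knockout replicate 3. The difference was 0.16 (SE 0.36, 95% interval -0.65 to 0.97, limma adjusted p = 0.944). H2-Eb1, the E beta chain, had levels of 9.09, 8.24 and 7.70 in the knockout, against 8.47, 7.81 and 8.30 in WT. The groups overlapped, with the extremes again on knockout replicates 1 and 3. The difference was 0.15 (SE 0.32, 95% interval -0.58 to 0.88, limma adjusted p = 0.941). The 3 intervals each held differences of 0.5 in both directions. Without knockout replicate 1 the 3 differences were -0.24 for H2-Aa, -0.36 for H2-Ab1 and -0.22 for H2-Eb1, and without knockout replicate 3 they were 0.47, 0.38 and 0.48.

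The 3 classical chains kept close to each other from array to array. Their levels spanned 1.52 (H2-Aa), 1.46 (H2-Ab1) and 1.39 (H2-Eb1) on the log2 scale over the 6 arrays, where the median gene spanned 0.446. Their SDs over the arrays were at percentiles 99, 98.3 and 98.2 of all genes. Over 6 arrays, which share 1 normalization, Pearson's r was 0.981 for H2-Aa with H2-Eb1, 0.979 for H2-Ab1 with H2-Eb1 and 0.964 for H2-Aa with H2-Ab1. Spearman's rho was 0.943, 0.943 and 0.886, with exact permutation p = 0.0167, 0.0167 and 0.0333. For r the exact two-sided permutation p was 0.00417, 0.00278 and 0.00556, each 0.05 after Benjamini-Hochberg adjustment over the 36 pairs of members, while the adjusted values for rho were 0.2, 0.2 and 0.24. Without the 2 arrays farthest from the median, r was 0.962, 0.945 and 0.983. After the group means were removed it was 0.980, 0.989 and 0.972.

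Among 3685 other genes brighter than the median gene and with an SD of at least 0.2, the 5 whose levels over the 6 arrays were most like the mean of the 3 classical chains were Id2, Selenom, Lmod1, 4930426L09Rik and Map7d3, with r of 0.993, 0.984, 0.981, 0.974 and 0.971. Id2, an inhibitor of helix-loop-helix transcription factors that is needed for dendritic and innate lymphoid cells, had levels of 9.48, 8.59 and 8.09 in the knockout, against 8.73, 8.11 and 8.69 in WT. Its array order matched that of H2-Eb1. The 8 conventional dendritic cell markers had r to the classical chains between -0.785 and 0.903, with a median of 0.069 and 4 above 0, and the 15 B cell markers had r between -0.234 and 0.695 (median 0.29, 13 above 0). The 15 monocyte and macrophage markers had r between -0.189 and 0.928 (median 0.575, 14 above 0). Such medians were not particular to them: erythroid markers had 0.658 (4 of 5 above 0) and T and NK cell markers 0.564 (7 of 10). Neutrophil markers had a median of 0.499 (10 of 10) and genes induced by interferon gamma 0.659 (12 of 13). Plasma cell markers had 0.080 (5 of 8) and plasmacytoid dendritic cell markers 0.228 (6 of 9). The 10 LSK genes had r between -0.935 and 0.660 (median -0.124, 3 above 0). With 6 arrays and 3685 genes, values of this size are a ranking only.

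**Figure D2:**
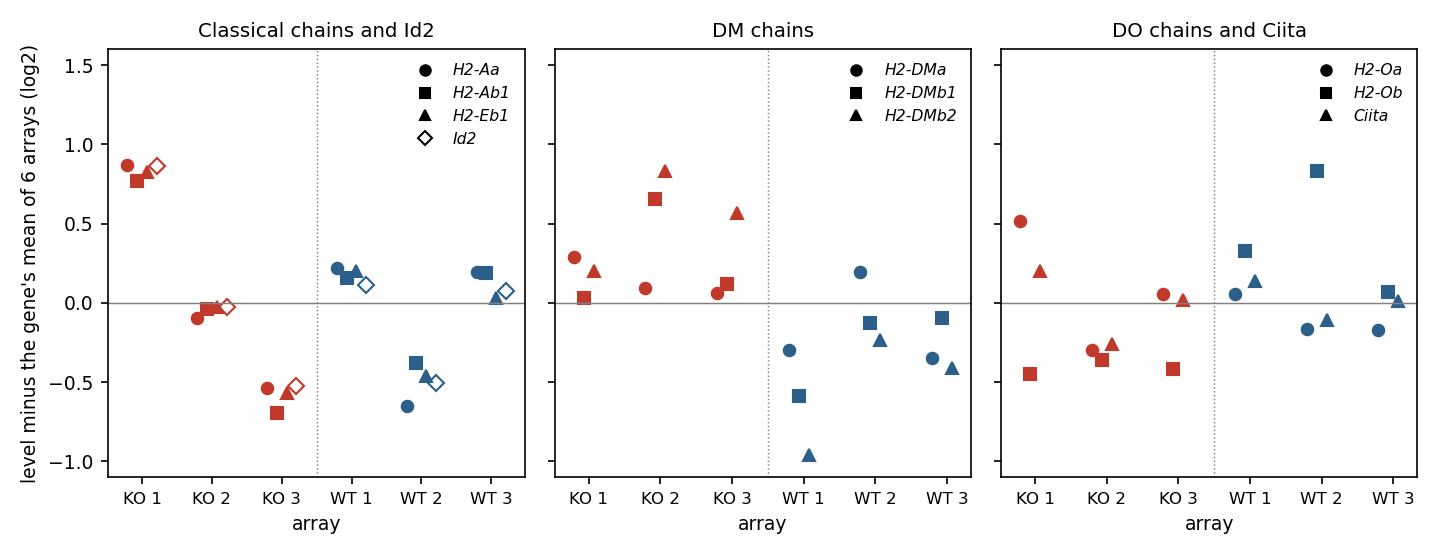
Level of each gene minus its mean over the 6 arrays (y axis, log2) on the 3 knockout arrays (red) and the 3 WT arrays (blue), for the classical chains with Id2 (open symbols), the DM chains, and the DO chains with Ciita. H2-Aa, H2-Ab1, H2-Eb1 and Id2 move together, highest on knockout replicate 1, while H2-DMb2 is higher on every knockout array and H2-Ob lower.

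Ciita, the coactivator that sets class II transcription, was at 7.43, 6.97 and 7.25 in the knockout, against 7.37, 7.12 and 7.24 in WT. The WT values lay within the range of the knockout values. The difference was -0.03 (SE 0.14, 95% interval -0.35 to 0.29, limma adjusted p = 0.978), and it lay between -0.13 and 0.10 with each array left out in turn. Its span over the arrays, 0.462, was close to that of the median gene. Its highest r with another member over the 6 arrays was 0.850, with H2-Oa (exact permutation p = 0.0278, adjusted over the 36 pairs to 0.2). That r was 0.725 without knockout replicates 1 and 2, and rho was 0.886 (exact permutation p = 0.0333, adjusted to 0.24). With H2-Aa, H2-Ab1 and H2-Eb1 the r of Ciita was 0.623, 0.507 and 0.567 (exact permutation p = 0.179, 0.307 and 0.240). With H2-DMb1, H2-DMb2, H2-DMa and H2-Ob it was negative, at -0.686, -0.502, -0.141 and -0.113.

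The DM chains, which edit the peptide cargo, had positive differences in all 3 genes. H2-DMb2 had levels of 7.80, 8.43 and 8.17 in the knockout, against 6.63, 7.37 and 7.19 in WT. Every knockout array lay above every WT array, as for 7.96% of all genes. The means were 8.13 ± 0.32 in the knockout and 7.06 ± 0.38 in WT (SD, n = 3 each), a 2.10-fold difference (log2 1.07, SE 0.22, 95% interval 0.57 to 1.56), with limma adjusted p = 0.209, which misses the threshold of 0.05. The difference ranged from 0.85 without WT replicate 1 to 1.23 without knockout replicate 1. Its adjusted p ranged from 0.142 to 0.615 over the alternatives that used no replicate block.

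H2-DMb1, the neighbouring copy, was at 6.44, 7.07 and 6.53 in the knockout, against 5.83, 6.28 and 6.32 in WT. The groups did not overlap, with knockout replicate 2 the highest, as for H2-DMb2. The difference was 0.54 (SE 0.20, 95% interval 0.09 to 0.98, limma adjusted p = 0.548). It was 0.34 without knockout replicate 2 and 0.38 without WT replicate 1, and in neither case was the unadjusted limma p under 0.05. H2-DMb1 and H2-DMb2 had an r of 0.934 and a rho of 0.943 over the 6 arrays (exact permutation p = 0.00556 and 0.0167, adjusted over the 36 pairs to 0.05 and 0.2), and r was 0.957 without knockout replicate 2 and WT replicate 1. Since the genes are near copies, how far the probe sets measure separate transcripts was not tested. H2-DMa, the alpha chain, was at 10.87, 10.67 and 10.64 in the knockout, against 10.28, 10.77 and 10.23 in WT. WT replicate 2 lay among the knockout arrays, and the difference was 0.30 (SE 0.16, 95% interval -0.06 to 0.66, limma adjusted p = 0.686). Without WT replicate 2 it was 0.47, and H2-DMa then had an unadjusted limma p under 0.05, and without WT replicate 3 it was 0.20.

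**Figure D3:**
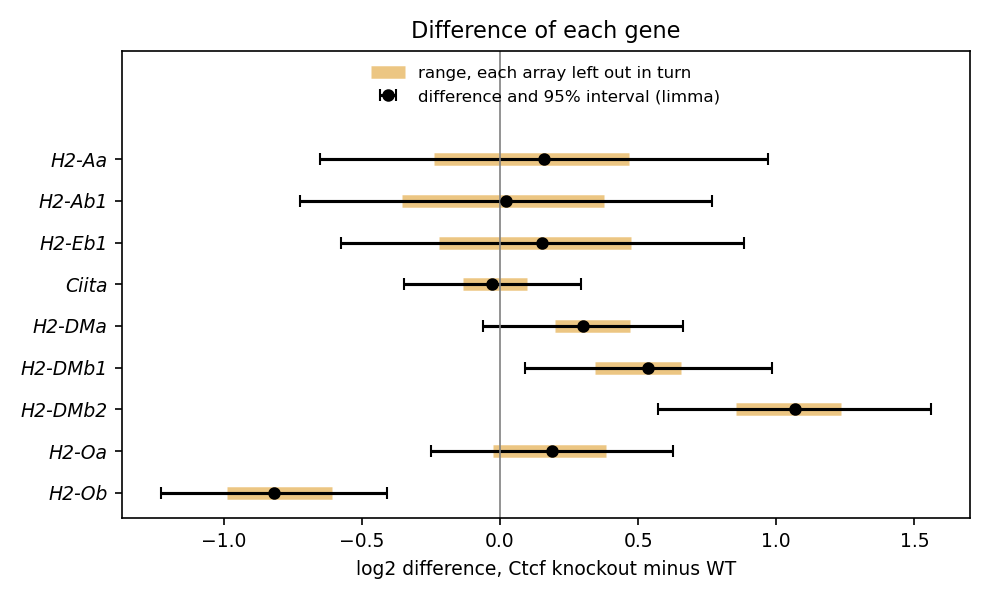
Log2 difference, knockout minus WT (x axis), of each of the 9 genes (rows), with the 95% interval of the limma fit of all 6 arrays (black) and the range of the difference when each array was left out in turn (orange). The intervals of H2-DMb1, H2-DMb2 and H2-Ob lie to 1 side of 0, and the left-out ranges of H2-Aa, H2-Ab1, H2-Eb1, Ciita and H2-Oa span 0.

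The DO chains, the inhibitor of DM, differed from each other. H2-Ob, the beta chain, was at 8.05, 8.13 and 8.08 in the knockout, against 8.82, 9.33 and 8.56 in WT. Every knockout array lay below every WT array, as for 5.32% of all genes, and the knockout values spanned only 0.0880 where the WT values spanned 0.762. The means were 8.09 ± 0.04 in the knockout and 8.90 ± 0.39 in WT (SD, n = 3 each). The knockout stood at 56.7% of the WT level (log2 -0.82, SE 0.18, 95% interval -1.23 to -0.41, limma adjusted p = 0.265). The difference lay between -0.99 without WT replicate 3 and -0.61 without WT replicate 2, and its adjusted p over the alternatives between 0.162 and 0.674. H2-Oa, the alpha chain, was at 8.57, 7.75 and 8.11 in the knockout, against 8.10, 7.88 and 7.88 in WT. Knockout replicates 1 and 2 were the extremes, the groups overlapped, and the difference was 0.19 (SE 0.19, 95% interval -0.25 to 0.63, limma adjusted p = 0.872), or -0.02 without knockout replicate 1.

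Most markers of B cells, plasma cells and conventional dendritic cells had negative differences, as H2-Ob had, while 7 of the 9 members had positive ones. Negative signs were not particular to these cells. In the neutrophil, the T and NK cell and the LSK list 70% were negative, and in the type I interferon list 94.1%. All 15 measured B cell markers had negative differences, as did 45.3% of all genes, with a median of -0.36 and 0 called. Of the 15, 3 had an unadjusted limma p under 0.05, beside 3.08% of all genes lower at that limit. That median was -0.14 without WT replicate 1, -0.21 without knockout replicate 3 and -0.55 without WT replicate 3. The mean log2 level over this list was between 6.01 and 6.50 on the knockout arrays and between 6.39 and 7.32 on the WT arrays. Its 3 brightest genes, Cd79b, Cd79a and Blnk, components of the B cell receptor and its signalling, differed by -0.09, -1.25 and -0.15. The 8 plasma cell markers, led by Ighm, Jchain and Xbp1, were all negative with a median of -0.69 and 0 called. Of the 8, 5 had an unadjusted limma p under 0.05, beside the same 3.08%. The mean log2 level of these markers was between 8.48 and 9.43 in the knockout and between 9.17 and 10.13 in WT. Their median was -0.43 without knockout replicate 3. The part of these cells in the lower H2-Ob was not tested.

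Of 8 conventional dendritic cell markers 7 were negative (median -0.21), and the mean log2 level was between 6.79 and 7.005 in the knockout and between 7.04 and 7.12 in WT. Their brightest were Wdfy4, Cd209a and Naaa, which differed by -0.12, -0.29 and 0.08. Of 9 plasmacytoid dendritic cell markers 6 were negative (median -0.19, 6.18 to 6.49 in the knockout and 6.43 to 6.64 in WT), and their median was -0.04 without knockout replicate 3 and -0.06 without WT replicate 3. Of these Tcf4 and Ly6d differed by 0.01 and -0.39, and the brightest besides, Cox6a2, by -0.79 (adjusted p = 0.158). The 15 monocyte and macrophage markers had a median of -0.04 and overlapping ranges, 6.95 to 7.32 in the knockout and 6.96 to 7.45 in WT. Here Ly6c2, Lyz2 and Cd68 differed by -0.02, -0.27 and -0.11. In these 3 lists limma called 0 genes, and only Cox6a2 had an unadjusted p under 0.05, beside 8.11% of all genes.

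Markers of neutrophils, of T and NK cells, of erythroid cells and of LSK cells were read the same way. Neutrophil markers were negative in 7 of 10 (median -0.52, 6.40 to 7.06 in the knockout and 6.63 to 8.04 in WT), with the granule gene Ngp at -2.44 (adjusted p = 0.241), S100a8 at -0.52 and Lcn2 at -0.52. Their median was -0.18 without WT replicate 1, -0.21 without knockout replicate 3 and -1.06 without WT replicate 2. T and NK cell markers had a median of -0.05 (6.30 to 6.49 in the knockout and 6.21 to 6.46 in WT), with the cytotoxic granule gene Nkg7 at 0.68 (adjusted p = 0.429), Lat at 0.12 and Cd5 at -0.01. The 5 measured erythroid markers had a median of 0.08 (6.66 to 7.37 in the knockout and 6.25 to 7.29 in WT), with Car1 at 0.56, Epor at 0.08 and Gata1 at 0.12. In the LSK list, with a median of -0.09, Cd34 differed by -0.02, Flt3 by -0.42 and Cd27 by -0.30. Limma called 0 genes in these 4 lists, while at an unadjusted p under 0.05 it had 5 neutrophil markers and 1 LSK gene lower and 1 T and NK cell marker and 1 LSK gene higher. Over all genes 3.08% were lower and 5.03% higher at that limit. The part of these markers in the class II values was not tested.

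The factors that build the class II promoter complex had differences between -0.19 and 0.23. Of 12 measured genes 5 were positive and 7 negative, with a median of -0.04, 0 were called and 0 had an unadjusted p under 0.05 by limma, beside 8.11% of all genes. The lowest were Kat2b, a histone acetyltransferase, at -0.19 and Crebbp, a coactivator, at -0.17. The highest were Nfyb, an NF-Y subunit that binds the Y box, at 0.23 and Carm1, a protein arginine methyltransferase, at 0.09. The RFX subunits Rfx5, Rfxank and Rfxap differed by -0.11, -0.13 and -0.10. Upstream of Ciita 12 genes had a median of 0.00, 6 in each direction, and limma called 0, with Prdm1 and Ifngr2 at an unadjusted p under 0.05. Irf4, a lymphoid transcription factor, was lowest at -0.67, and Prdm1, a repressor of Ciita in plasma cells, followed at -0.62 (adjusted p = 0.477). Highest were Ifngr2 at 0.34 and Ifngr1 at 0.14, the chains of the interferon gamma receptor (limma adjusted p = 0.574 and 0.794). In both, all knockout arrays lay above all WT arrays, as for 7.96% of all genes. Spi1 differed by -0.01, Irf8 by -0.27 and Irf1 by 0.02.

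Antigen processing genes were mixed, 7 positive and 6 negative of 13, with a median of 0.04. Limma called 0, and 0 had an unadjusted p under 0.05, beside 8.11% of all genes. Ctss, the cathepsin that trims the invariant chain, was at 8.13, 8.93 and 7.67 in the knockout, against 8.87, 8.91 and 8.78 in WT, a difference of -0.61 (SE 0.27, limma adjusted p = 0.617). Knockout replicate 2 lay above the WT arrays and the other knockout arrays below them. Ctse followed at -0.35. At the other end were Ifi30, the lysosomal thiol reductase GILT, at 0.54 (adjusted p = 0.668) and Ctsd at 0.40. Ifi30, at 9.02, 8.72 and 8.17 in the knockout and 8.36, 7.52 and 8.41 in WT, was also the gene of this list nearest to the classical chains over the arrays, with an r of 0.802.

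Class I presentation, which serves CD8+ T cells and shares part of the region, had a median of 0.07 over 17 genes. Here 10 were positive and 7 negative, with 0 called and 1 at an unadjusted p under 0.05 by limma, beside 8.11% of all genes. H2-T23, a non-classical class I gene, was lowest at -0.70 (adjusted p = 0.160), followed by Nlrc5, the class I counterpart of Ciita, at -0.25. Psmb9, an immunoproteasome subunit, was highest at 0.34, followed by the chaperone Calr at 0.31. H2-K1 differed by -0.03 and B2m, the light chain of class I, by -0.02. Co-stimulatory genes had a median of -0.13 over 8 genes, with the ligands Icosl at -0.36 and Cd274 at -0.25 lowest and Tnfsf4 at 0.19 and Cd80 at 0.16 highest. That median was -0.04 without knockout replicate 2 and -0.05 without WT replicate 1. Of 8 genes of CTCF and cohesin, 6 were positive, and limma called 0 in either list. In both together 3 genes had an unadjusted limma p under 0.05, where 8.11% of all genes did. They were Icosl, which was lower, Stag1, which was higher, and Ctcf, the targeted gene itself. The highest were Stag1 at 0.50 and Smc1a at 0.32, and beside Ctcf the lowest was Nipbl at -0.04.

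Interferon gamma induces Ciita and class II genes in many cells, so interferon response genes were read beside the members. Of 13 genes induced by interferon gamma 11 were negative, with a median of -0.39. Limma called 0, and 2 were lower at an unadjusted p under 0.05, beside 3.08% of all genes. The median was -0.21 without knockout replicate 3 and -0.24 without WT replicate 3. Their mean log2 level was between 6.83 and 7.72 in the knockout and between 7.22 and 7.98 in WT. Cxcl10 was lowest at -0.78 and the GTPase Iigp1 followed at -0.54, while Gbp3 at 0.16 and Gbp8 at 0.12 were highest. Cxcl9 was at 9.52, 7.37 and 7.21 in the knockout, against 8.60, 6.74 and 9.61 in WT, with an r of 0.846 to the classical chains. Knockout replicate 1 and WT replicate 3 were its high arrays. Of 17 genes of the type I response 16 were negative, with a median of -0.69. By limma 0 were called, and 11 were lower at an unadjusted p under 0.05, beside 3.08% of all genes. Rsad2 at -1.20 and Oas2 at -1.16 were lowest, and Ifit2 at 0.09 and Ifih1 at -0.04 highest. The group ranges of this list did not overlap, 7.48 to 7.99 in the knockout and 8.13 to 8.69 in WT, unlike those of the 9 class II genes, 8.18 to 8.69 in the knockout and 8.21 to 8.27 in WT. Such ranges were not particular to this list. Those of the conventional dendritic cell and LSK lists did not overlap either. Nor did those of the co-stimulatory genes, 6.43 to 6.49 in the knockout and 6.51 to 6.56 in WT.

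**Figure D4:**
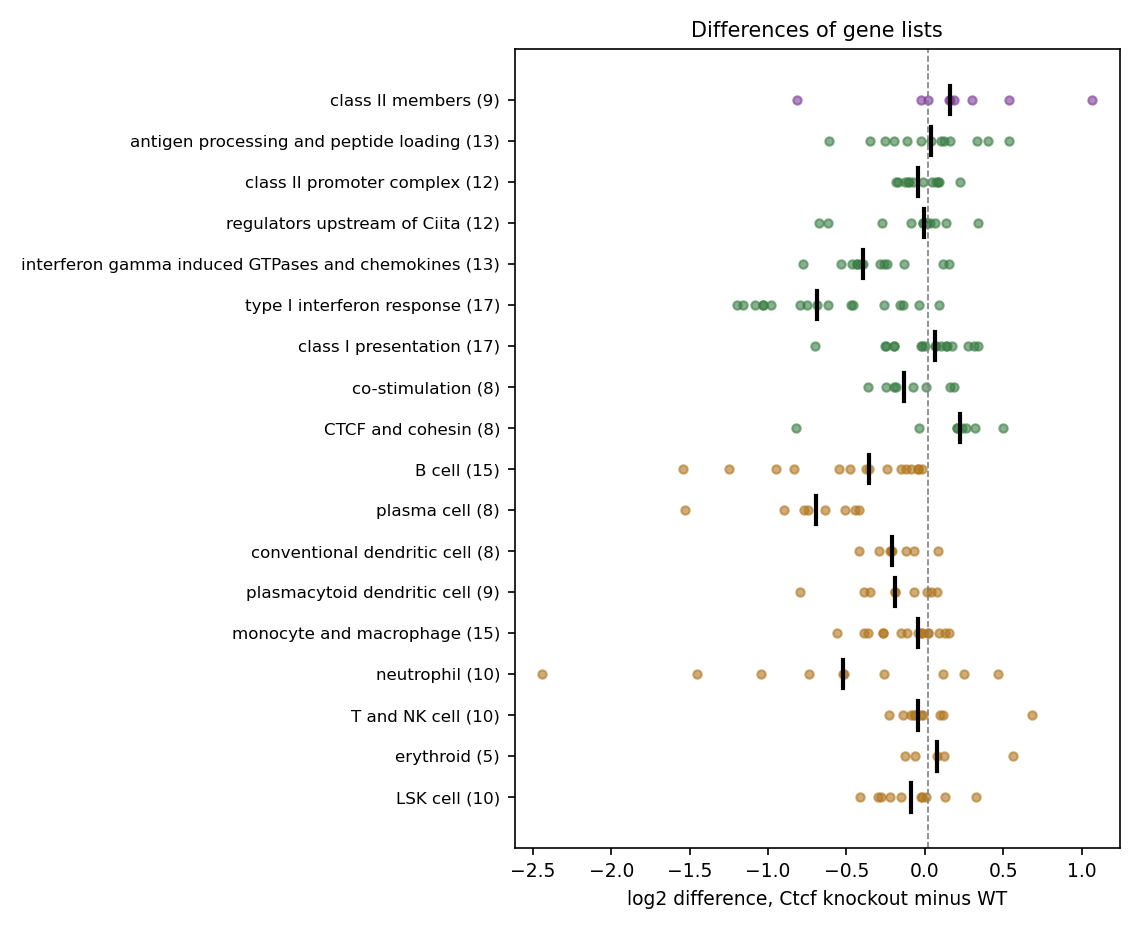
Log2 difference, knockout minus WT (x axis), of every measured gene (points) in each list (rows, number measured in brackets), with the list's median as a black bar and the median of all genes as a dashed line; the class II members are purple, pathway lists green and cell type markers brown. The type I interferon list has a median of -0.69 and the plasma cell list of -0.69, while the class II members spread from -0.82 to 1.07.

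The measured genes along the class II region of chromosome 17 were set in RefSeq order. From H2-Oa to H2-Eb1, the outermost members, it holds 8 members and 5 other measured genes, Brd2, Psmb9, Tap1, Psmb8 and Tap2. The 5 others differed by -0.03, 0.34, 0.07, 0.07 and -0.25, with 0 called and 0 at an unadjusted p under 0.05 by limma. H2-DMb2 and H2-Ob, with the highest and lowest differences of the members, are thus separated by H2-DMb1 and by the genes of the transporter TAP and the immunoproteasome. The 5 genes on each side had a median of 0.01, with 0 called. On the far side of H2-Eb1, H2-Eb2 differed by 0.20, H2-Ea by 0.15, Btnl2 by -0.20, Btnl1 by -0.01 and BC051142 by 0.01. H2-Ea, the E alpha gene, is listed as a transcribed pseudogene in the RefSeq annotation and is not expressed in some strains such as C57BL/6. It was dim, at 5.54, 5.41 and 5.56 in the knockout, against 5.24, 5.45 and 5.37 in WT. Whether the E beta chain of H2-Eb1 has a partner in these cells was not tested. On the other side H2-Ke6, Slc39a7, Rxrb, Col11a2 and H2-Pb lay between -0.06 and 0.07.

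**Figure D5:**
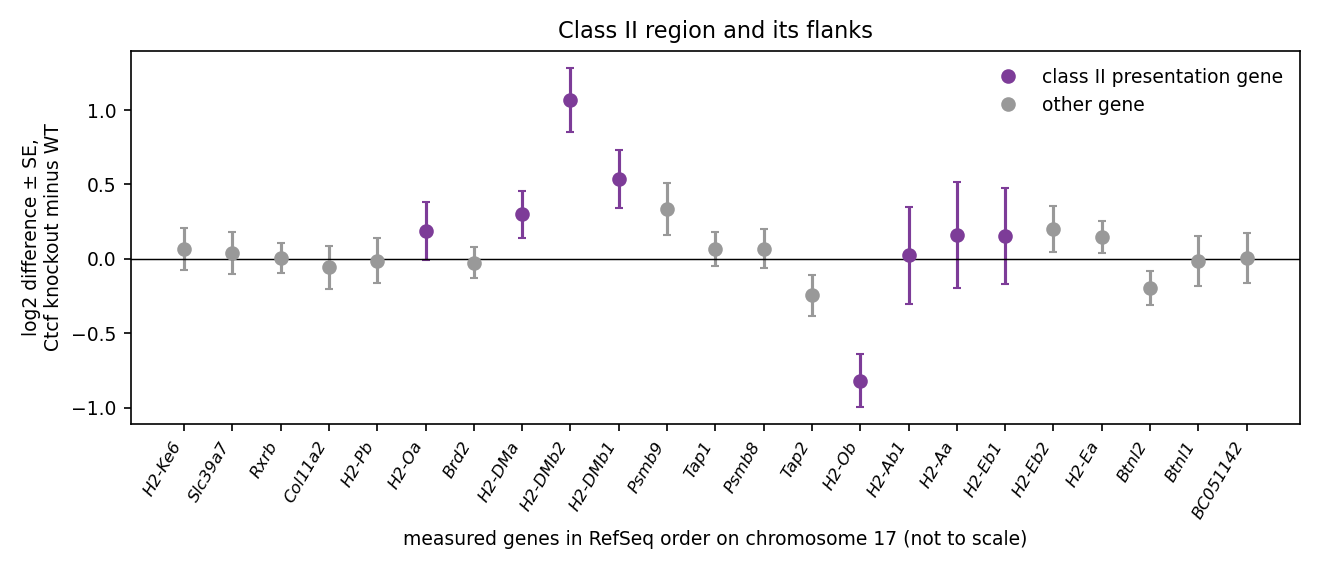
Log2 difference with its SE (y axis, knockout minus WT) of the measured genes of the class II region and 5 on each side, in RefSeq order and not to scale (x axis); members are purple and other genes grey. H2-DMb2 at 1.07 and H2-Ob at -0.82 are the extremes, and the classical chains have the widest error bars. H2-DMb1 at 0.54 and H2-DMa at 0.30, beside H2-DMb2, are also positive.

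The annotated spans of H2-DMa and Brd2 overlap, as do those of Ciita and Dexi. Brd2, a bromodomain protein, differed by -0.03 (SE 0.11), and Dexi by 0.07 (SE 0.14). Around Ciita on chromosome 16, Atf7ip2, Emp2, Tekt5, Nubp1 and Tvp23a on one side differed by 0.23, 0.02, 0.23, 0.23 and -0.16. On the other side Clec16a, Socs1, Tnp2 and Prm3 differed by 0.20, -0.09, -0.23 and -0.15. None of these 10 neighbours was called by limma, and 0 had an unadjusted p under 0.05. Socs1 is a feedback inhibitor of cytokine receptor signalling and also stands among the genes upstream of Ciita.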

How the data were processed

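Gene expression was measured in 6 LSK samples on Affymetrix Mouse Gene 2.0 ST arrays. The values the authors deposited are log2 probe set levels made with RMA in the R package oligo, per the submitters' processing notes. That method subtracts a modelled background, quantile-normalizes the arrays and fits 1 level to the probes of a set, so levels are relative. Software versions and the build behind the annotation are not stated here. Median log2 levels lay between 5.99 and 6.08 on the arrays.

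Of 41345 probe sets 23521 have 1 gene symbol in GEO's platform annotation, 1814 several and 16010 none here. Genes were named through entrez_id and RefSeq (GRCm38.p6), which changed 0 symbols, and each of 22180 genes took its probe set with the highest mean. No filter on low values was used. Near-identical genes can share probes. Knockout and WT were compared by limma 3.58.1 in R 4.3.3 (lmFit and eBayes, group only, all 6 arrays), with Benjamini-Hochberg adjustment over all genes and a threshold of 0.05. The script was tested on simulated data.

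The labels call the samples biological replicates. The members and the 17 gene lists (190 of 206 names measured) were chosen with earlier results of these data known. Named genes were the members, Ctcf, Kit, 2 genes at each end of each pathway list, the 3 brightest of each marker list, neighbours in gene order and the 5 most alike over the arrays (by the classical chains alone, as Cd74 had no value); others were chosen after their values were seen. Correlations and promoter matches used Python 3.11.15 and Biopython 1.88. Alternatives were trend and robust options of eBayes, array weights, brighter genes only, further quantile normalization, centring, mean or all probe sets, a block on the replicate number, a threshold of 0.1 and each array left out.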

Additional observations from a re-analysis of the deposited data

How the results depend on the processing

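Under every alternative run, limma called 0 of the 9 class II genes at an adjusted p under 0.05. At an adjusted p under 0.1 it also called 0 without the replicate block, and H2-DMb2 passes that limit with the block. With all arrays 3 of the genes had an unadjusted p under 0.05. The number of called genes, 16, became 25 with trend and robust settings, 3 with all probe sets, 26 at a threshold of 0.1 and between 0 and 8 with each array left out, 0 without knockout replicate 1, where 1725 genes had an unadjusted p under 0.05. Deviations of same-numbered arrays from their group means had r of 0.294, 0.0155 and -0.140, so the numbers were not taken as pairs. With the replicate number as a block it was 7; the block called 0 members, as the fit without it did, with H2-DMb2 at an adjusted p of 0.0618. H2-DMb1, H2-DMb2, H2-DMa and H2-Ob kept their direction under all 14 alternatives each, but most of these alternatives could not have turned it. The eBayes options, brighter genes only, mean or all probe sets and the block left the differences of the members unchanged. For H2-DMb1, H2-DMb2 and H2-Ob the groups do not overlap, so weighting arrays or leaving 1 out cannot turn the sign either. Array weights turned H2-Aa to -0.042, H2-Ab1 to -0.16 and H2-Eb1 to -0.021, and H2-Ab1 was also -0.028 with a further quantile normalization and -0.033 with centring. With each array left out, H2-Aa lay between -0.24 and 0.47, H2-Ab1 between -0.36 and 0.38, H2-Eb1 between -0.22 and 0.48, H2-Oa between -0.024 and 0.38 and Ciita between -0.13 and 0.10. The median of the members, 0.16, lay between -0.13 and 0.38 over its alternatives. The count of members higher at an unadjusted p under 0.05, 2, followed after seeing the data, was 1 without knockout replicate 2 or WT replicate 1 and 3 without WT replicate 2. The medians of the lists for antigen processing, class I, the promoter complex, regulators of Ciita, monocytes and macrophages, T and NK cells and erythroid cells changed sign with at least 1 array left out. The cause of these shifts was not tested. Without detection calls, the signal over background of dim genes is not known here.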
